A study of Mus musculus with 10 samples.

Results

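Calmodulin-dependent kinases relay calcium signals, and 9 genes of this system were considered here, the calmodulins Calm2 and Calm3 and the kinases Camk2a, Camk2b, Camk2d, Camk2g, Camk4, Camkk1 and Camkk2. They were taken by name, and each probe set annotated to a single one of these symbols was used. Of the 9 genes, 6 had such probe sets, out of 18193 genes in the whole series. Calm2, Calm3 and Camkk1 had none in the annotation used and were not analysed here, so the values below are those of kinases and not of calmodulin. The 6 kinase genes were covered by 25 probe sets, 12 on the 430A chip and 13 on the 430B chip.

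RNA came from medulloblastomas and from cerebellar tissue beside them, in mice that carried both CAGGS-CreER and R26-SmoM2 and were given 1 mg of tamoxifen per 40 g of body weight on postnatal day 10. SmoM2 is an activated form of Smoothened, and CreER is a recombinase that tamoxifen switches on. CAGGS is a broadly active promoter, so recombination was not limited to 1 cell type by the driver. The cerebellar tissue is labelled wild type although its mice carried the same alleles and had the same injection. Each chip carried 3 tumour and 2 cerebellum samples, which makes 5 arrays per chip and 10 in all. The labels call the samples biological replicates but do not say which pieces came from 1 mouse, nor the age at collection, so each p-value speaks of the spread among these samples alone, which may be partly technical.

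When calcium enters a neuron it binds calmodulin, a small protein with no enzyme activity of its own, which then opens the autoinhibited catalytic domain of its target kinases. CaMKII assembles from alpha, beta, gamma and delta subunits, encoded by Camk2a, Camk2b, Camk2g and Camk2d, and keeps its activity after the calcium signal ends by phosphorylating itself. CaMKIV, encoded by Camk4, works largely in the nucleus on factors such as CREB and is abundant in cerebellar granule neurons. CaMKK2 phosphorylates CaMKI, CaMKIV and AMP-activated kinase. In the mature cerebellum the beta subunit of CaMKII occurs in granule and Purkinje neurons, and the alpha subunit mainly in Purkinje cells.

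Promoter windows from the RefSeq table (GRCm38.p6) are shown for 3 of the 6 genes, Camk2b, Camk2d and Camkk2. The search skipped a chromosome, so the table may also hold windows of genes not shown. All 3 genes were lower in the tumours (below), as were Camk2g and Camk4, whose windows are not shown. Camk2a, which was not called (below), has no window here either. The windows shown therefore cannot be set against that of a kinase gene not called. Each is the 250 bases before an annotated transcript start, written 5′ to 3′ on the gene's strand, with every GGGCGG (the core of an Sp1 box, read on both strands) in capitals. The windows of Camk2b and Camk2d lay wholly inside the annotated span of their gene, and 112 bases of the Camkk2 window did.
Camk2b, chr11:6065749-6065998, minus strand: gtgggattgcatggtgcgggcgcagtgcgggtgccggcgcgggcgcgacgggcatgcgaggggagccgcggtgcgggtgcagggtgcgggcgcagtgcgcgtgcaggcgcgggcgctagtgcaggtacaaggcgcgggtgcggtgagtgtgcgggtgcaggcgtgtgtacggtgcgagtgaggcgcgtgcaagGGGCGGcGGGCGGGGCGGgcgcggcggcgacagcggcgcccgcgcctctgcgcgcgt
Camk2d, chr3:126596701-126596950, plus strand: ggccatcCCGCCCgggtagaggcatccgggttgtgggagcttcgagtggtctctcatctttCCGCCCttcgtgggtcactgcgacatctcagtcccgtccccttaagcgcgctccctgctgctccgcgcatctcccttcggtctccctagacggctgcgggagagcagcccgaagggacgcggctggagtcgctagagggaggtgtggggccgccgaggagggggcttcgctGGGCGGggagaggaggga
Camkk2, chr5:122779411-122779660, minus strand: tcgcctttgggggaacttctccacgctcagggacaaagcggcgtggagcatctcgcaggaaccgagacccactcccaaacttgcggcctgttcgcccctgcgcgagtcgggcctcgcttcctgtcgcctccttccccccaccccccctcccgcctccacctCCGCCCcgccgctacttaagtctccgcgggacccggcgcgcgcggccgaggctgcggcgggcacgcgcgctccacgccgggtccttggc
GGGCGG occurred 3 times in the Camk2b window, where the last pair shares a base, 3 times in that of Camk2d and once in that of Camkk2. It was present in 32.7% of all 32851 windows of this length in the table. The 3 windows were rich in G and C, at 78.4% for Camk2b, 68.4% for Camk2d and 72.4% for Camkk2, against a median of 52.4%. None of the 3 held TGACG (the core of the CREB element), GACCACCCA (the GLI site), CAGCTG (an E-box) or TAAAAATA (a MEF2 core) on either strand. Those motifs occurred in 17.8%, 0.225%, 13.0% and 2.45% of all windows, and a match or its absence is only a description of these letters.

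The values are the intensities deposited for each probe set and array, on a linear scale. Tissues were compared within a chip by limma on log2(intensity + 16), and a probe set was called when its p, adjusted over all probe sets tested on that chip, was below 0.05. A log2 fold change is that of tumour over cerebellum on this scale, given ± SE, and understates the change of dim probe sets. Array medians lay between 33.3 and 35.9 on 430A and between 22.5 and 24.0 on 430B. On the 100 probe sets that both chips hold, none of the 3 tumour arrays of 430B resembled best the 430A array of its own number (r of deviations from the tumour mean 0.215, -0.684 and -0.520 for equal numbers). Array numbers are therefore used only within a chip, and each fold change below was fitted on 1 chip; gene list counts and medians pool such values from both chips. RNA came from pieces of tissue, so fewer cells of a type and less RNA per cell cannot be told apart.

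Of the 25 kinase probe sets, 20 passed the filter on low values, which left out the dimmest 25% of each chip by the mean over its 5 arrays. On 430A, 9 of 11 tested kinase probe sets were lower in the tumours and none was higher, where 19.0% of all 16969 probe sets were lower and 13.1% higher. On 430B, 6 of 9 were lower and none higher, against 9.77% lower and 7.85% higher of 16883. Every tumour lay below every cerebellum sample in 10 of the 11 and in 8 of the 9, a trait of 31.8% and 24.7% of all probe sets of the 2 chips. The median log2 fold change of the tested kinase probe sets was -1.57 on 430A and -1.05 on 430B, beside -0.05 and -0.02 over all probe sets tested. Among the 15 called, 4 passed the filter only through the cerebellum level, namely 1460630_at of Camk2d, 1421941_at and 1441974_at of Camk4 and 1424475_at of Camkk2. These could be kept only by differing, so the counts describe the probe sets and are not evidence for the genes as a group. All 20 log2 fold changes were negative. The added constant moved the dimmer ones most: with 1 and with 64 in place of 16, the log2 fold change was -1.83 and -0.47 for 1460630_at of Camk2d, -2.84 and -0.95 for 1441974_at of Camk4, -2.74 and -0.83 for 1424475_at and -3.01 and -1.27 for 1455401_at of Camkk2, and -2.82 and -1.44 for 1448676_at of Camk2b, and each kept its call. Probe sets of a gene share its transcript and are not replicates.

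**Figure D1:**
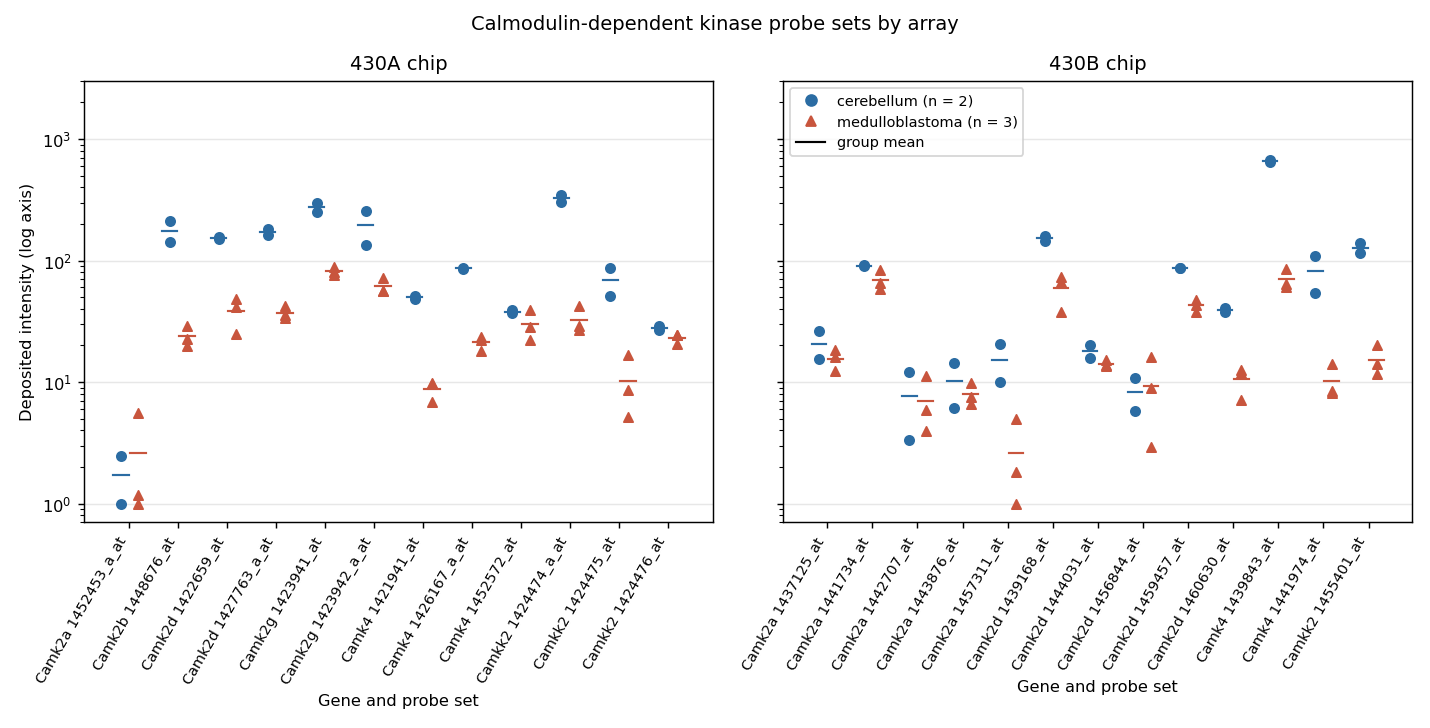
Deposited intensity (log axis) of all 25 kinase probe sets on the 430A chip (left) and the 430B chip (right), with 1 point per array and a short line for the group mean; circles are cerebellum (n = 2) and triangles medulloblastoma (n = 3). The gap is widest for Camkk2 1424474_a_at on 430A, where cerebellum reached 304 and 345 and no tumour passed 42.5, and for Camk4 1439843_at on 430B, where it reached 649 and 675 and no tumour passed 85.5, while 5 of the 6 Camk2a probe sets overlap or nearly touch and the sixth, 1457311_at, is apart at low intensity.

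Camkk2, the upstream kinase, had the largest fall of the group on 430A. Its probe set 1424474_a_at read 304 and 345 in the cerebellum samples and 26.7, 42.5 and 28.9 in the tumours. The lowest cerebellum value was 7.16 times the highest tumour value. The means were 324 ± 28.5 (SD, n = 2) and 32.7 ± 8.56 (SD, n = 3), a 9.93-fold ratio, and the log2 fold change was -2.82 ± 0.20 (adjusted p = 2.34e-06). Only 1.04% of the 430A probe sets tested had a lower log2 fold change.

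A second Camkk2 probe set of the same chip, 1424475_at, read 51.4 and 86.3 in cerebellum and 5.19, 16.6 and 8.57 in tumours, and fell by 1.69 ± 0.22 on the log2 scale (adjusted p = 1.30e-04). The 430B probe set 1455401_at moved the same way, with 114.9 and 140.4 in cerebellum and 11.7, 20.0 and 14.1 in tumours. It fell by 2.20 ± 0.17 on the log2 scale (adjusted p = 1.47e-05), and the groups lay 5.74-fold apart at their nearest values. The fourth, 1424476_at, was dim in both tissues, at 28.8 and 26.7 in cerebellum and 24.4, 20.7 and 24.6 in tumours. It was not called (-0.16 ± 0.14, adjusted p = 0.451), though the tumours lay just below the cerebellum samples. So 3 of 4 Camkk2 probe sets fell, and whether the fourth differs from them was not tested.

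Camk4, the nuclear kinase of granule neurons, gave the largest fall of the group on 430B. Probe set 1439843_at had 649 and 675 units in cerebellum and 64.2, 60.7 and 85.5 in tumours. The cerebellum samples were within 1.04-fold of each other and stood at least 7.60-fold above each tumour. Means of 662 ± 18.1 (SD, n = 2) and 70.1 ± 13.4 (SD, n = 3) gave a 9.44-fold ratio and a log2 fold change of -2.99 ± 0.22 (adjusted p = 1.42e-05). On that chip 0.397% of the probe sets tested had a lower log2 fold change.

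The other 430B probe set of Camk4, 1441974_at, read 54.5 and 108.6 in cerebellum and 8.18, 8.37 and 14.0 in tumours, with a log2 fold change of -1.85 ± 0.22 (adjusted p = 2.99e-04). Here the cerebellum samples differed 1.99-fold, and both were above all tumours. On 430A, 1426167_a_at had 85.0 and 87.3 in cerebellum against 21.97, 23.5 and 17.99 in tumours, a fall of 1.46 ± 0.15 on the log2 scale (adjusted p = 2.58e-05). Probe set 1421941_at had 48.7 and 51.3 against 6.90, 9.71 and 9.85 (-1.41 ± 0.14, adjusted p = 1.95e-05). These tumour values are under the added constant of 16, and the log2 fold change of 1421941_at was -2.39 with a constant of 1 and -0.65 with 64, called in each case.

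The remaining Camk4 probe set, 1452572_at, read 36.8 and 39.1 in cerebellum and 28.4, 39.4 and 22.1 in tumours. Medulloblastoma 2 was above both cerebellum samples, so the groups overlapped, and the difference of -0.25 ± 0.18 was not called (adjusted p = 0.332). Its 95% interval ran from -0.63 to 0.14. Thus 4 of the 5 Camk4 probe sets fell and 1 did not pass the test.

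**Figure D2:**
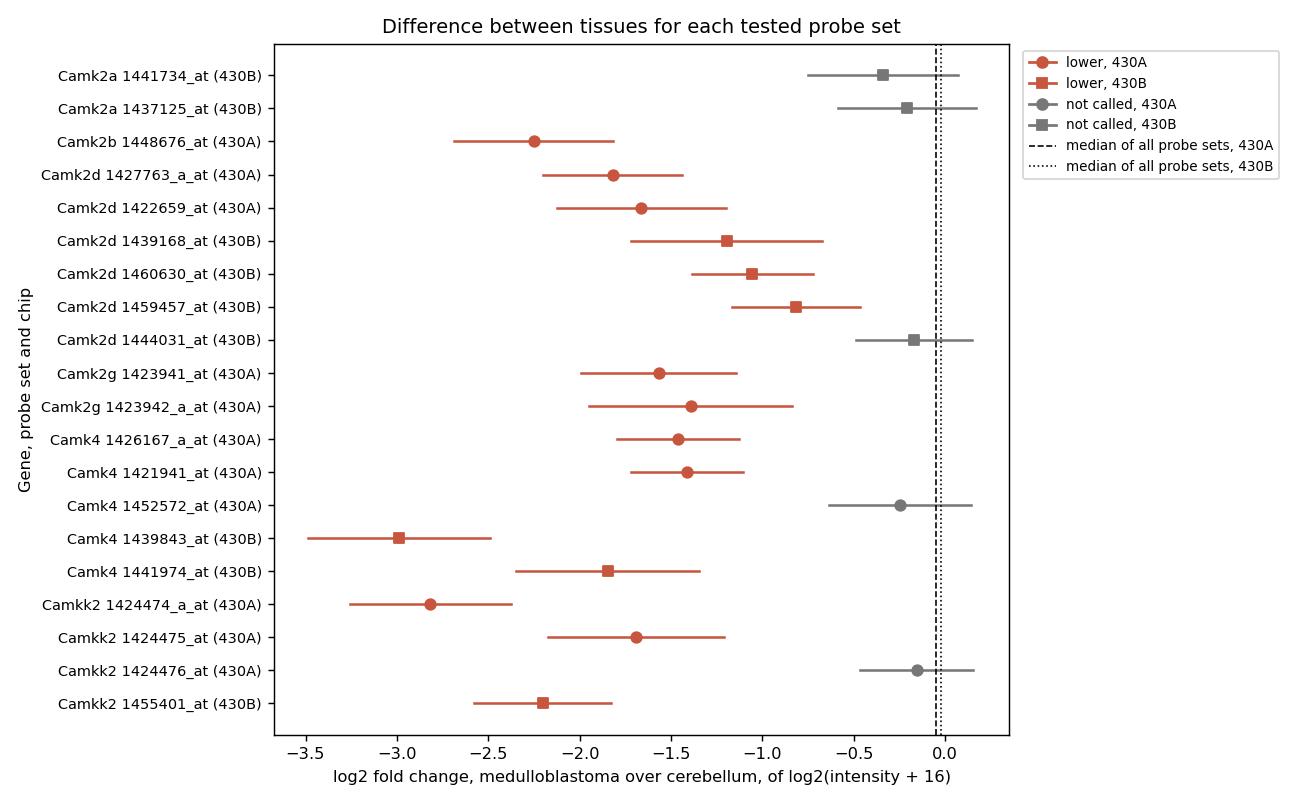
Log2 fold change of medulloblastoma over cerebellum, on log2(intensity + 16), for the 20 kinase probe sets tested, with 95% intervals from limma; circles are 430A and squares 430B, red marks those called lower and grey those not called, and the dashed and dotted lines are the medians of all probe sets on 430A and 430B. The 15 called probe sets lie between -2.99 and -0.82, and the 5 that were not called, 2 of Camk2a and 1 each of Camk2d, Camk4 and Camkk2, have intervals that include 0.

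The beta, gamma and delta subunits of CaMKII were each lower in the tumours. Camk2b, whose subunit also ties the holoenzyme to actin, had 1 probe set, 1448676_at on 430A. It read 141 and 210.5 in cerebellum and 22.5, 28.9 and 19.9 in tumours. All tumours lay at least 4.88-fold under the lower cerebellum sample. The means were 176 ± 49.1 (SD, n = 2) and 23.8 ± 4.65 (SD, n = 3), with a log2 fold change of -2.25 ± 0.20 (adjusted p = 8.85e-06).

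Camk2g, which encodes the widely expressed gamma subunit, fell by both of its 430A probe sets. In 1423941_at the cerebellum samples had 249.8 and 299 units and the tumours 75.7, 80.3 and 89.2. The tumours were within 1.18-fold of each other, and the log2 fold change was -1.57 ± 0.19 (adjusted p = 9.36e-05). Probe set 1423942_a_at had 134 and 258 in cerebellum and 71.9, 56.6 and 56.3 in tumours (-1.39 ± 0.25, adjusted p = 0.00137). Its cerebellum samples differed 1.93-fold, and the log2 fold change was -1.83 without cerebellum 1 and -0.96 without cerebellum 2, called in both.

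Camk2d, which encodes the delta subunit, had 7 probe sets, of which 5 fell, 1 was tested but not called and 1 was too dim to be tested. On 430A, 1427763_a_at read 161.5 and 182 in cerebellum and 35.9, 33.7 and 42.0 in tumours (-1.82 ± 0.17, adjusted p = 1.47e-05). Probe set 1422659_at read 150.2 and 155 against 24.9, 48.5 and 41.3 (-1.66 ± 0.21, adjusted p = 1.12e-04). In both, each tumour was under each cerebellum sample.

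On 430B, 3 of the Camk2d probe sets fell. Probe set 1439168_at had 159 and 146 in cerebellum and 66.8, 37.9 and 73.0 in tumours (-1.19 ± 0.23, adjusted p = 0.00554). Probe set 1459457_at had 87.6 and 86.9 against 43.2, 37.9 and 47.1 (-0.82 ± 0.16, adjusted p = 0.00500), and 1460630_at had 40.4 and 37.4 against 12.6, 7.06 and 12.0 (-1.05 ± 0.15, adjusted p = 7.70e-04). Each separates the tissues, by at least 1.85-fold at the nearest values. The first lost its call without cerebellum 1 (-1.14, adjusted p = 0.0633). For 1459457_at the call ended without cerebellum 1 (-0.81, adjusted p = 0.0527) or cerebellum 2 (-0.82, adjusted p = 0.0541), with the fold change hardly moved.

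Of the dim Camk2d probe sets, 1444031_at had 20.3 and 15.7 in cerebellum and 15.3, 13.5 and 13.8 in tumours and was not called (-0.17 ± 0.14, adjusted p = 0.488). The untested 1456844_at read 10.8 and 5.80 in cerebellum and 15.97, 2.90 and 8.95 in tumours, with no separation of the tissues.

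Camk2a, which encodes the alpha subunit best known from forebrain synapses, had 6 probe sets, of which 2 were tested and none was called by limma or had an unadjusted p below 0.05. Probe set 1441734_at on 430B was the brightest of them, with 91.3 and 89.7 in cerebellum and 65.1, 58.3 and 82.8 in tumours. The tumours lay below the cerebellum samples, by 1.08-fold at the nearest values, and the log2 fold change was -0.34 ± 0.18 (adjusted p = 0.265), with a 95% interval from -0.75 to 0.07. Without medulloblastoma 3 it was -0.46 and passed the test (adjusted p = 0.0343). Probe set 1437125_at read 15.4 and 26.1 against 18.3, 15.9 and 12.3, with overlap (-0.21 ± 0.17, adjusted p = 0.471).

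The other 4 Camk2a probe sets were below the filter. On 430A, 1452453_a_at read 1.00 and 2.44 in cerebellum and 1.00, 1.17 and 5.59 in tumours, at the floor of the scale. On 430B, 1442707_at lay between 3.33 and 12.1 and 1443876_at between 6.15 and 14.3 over the 5 arrays, with overlapping tissues. Probe set 1457311_at had 10.0 and 20.5 in cerebellum and 1.83, 4.97 and 1.00 in tumours, so the tissues were apart at low intensity; with no filter on low values it made the seventh kinase probe set called lower on 430B. Apart from 1441734_at, no Camk2a value on any array passed 26.1. Whether the change of Camk2a differs from that of the other subunits was not tested.

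**Figure D3:**
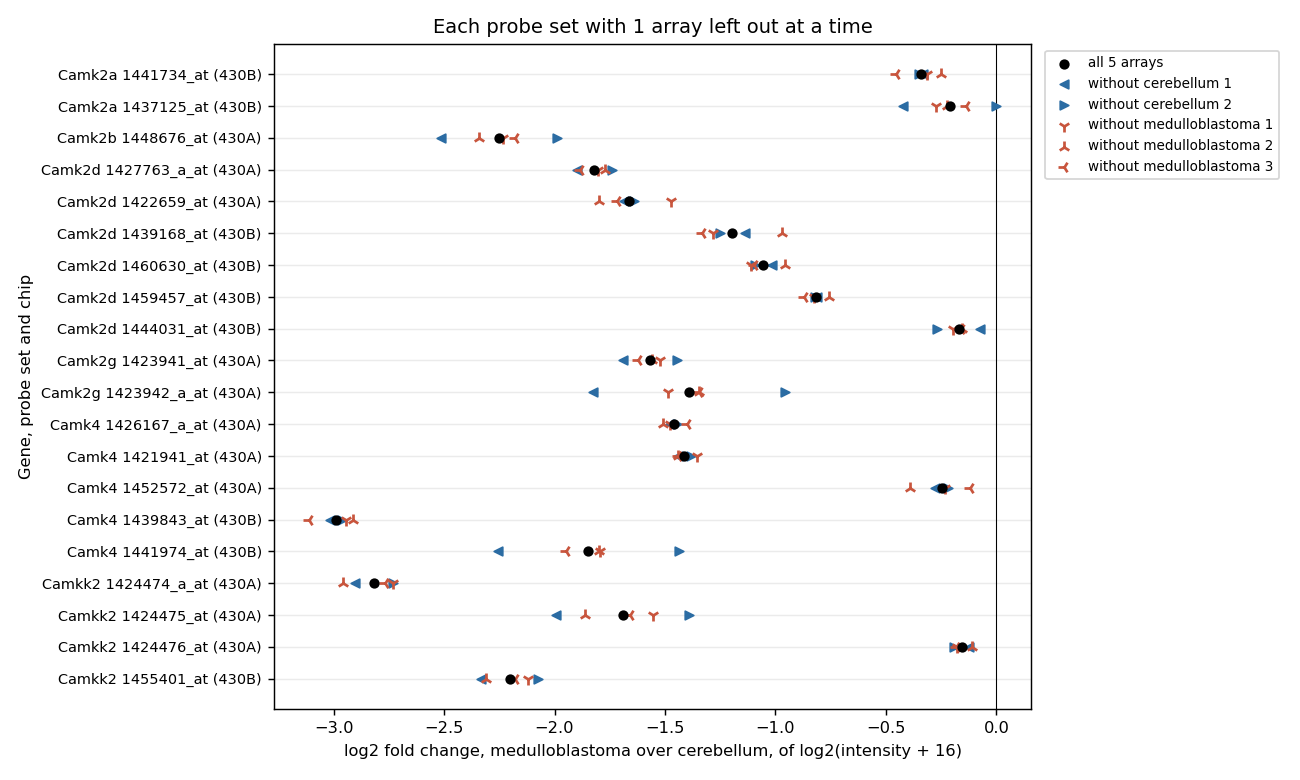
Log2 fold change of medulloblastoma over cerebellum, on log2(intensity + 16), of the 20 tested kinase probe sets with all 5 arrays of a chip (black) and with 1 array left out at a time (blue for a cerebellum array, red for a tumour array). Values of the 15 called probe sets stay between -3.11 and -0.76, and the spread is widest for Camk2g 1423942_a_at, from -1.83 to -0.96, and Camk4 1441974_at, from -2.26 to -1.44.

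Single arrays ordered the probe sets in part. Among the 9 called on 430A, cerebellum 2 read above cerebellum 1 in all 9, by 1.03-fold to 1.93-fold, whereas on 430B it did so in 3 of 6. Among the tumours of 430A, medulloblastoma 2 had the highest value in 5 of 9 and medulloblastoma 1 the lowest in 5. On 430B, medulloblastoma 3 was highest in 4 of 6 and medulloblastoma 2 lowest in 4. The largest spread between tumours in a called probe set was 3.20-fold, in 1424475_at of Camkk2.

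Genes whose pattern over the 5 arrays of 430A lay nearest to a kinase were sought among 9818 genes with 1 probe set each, by the Euclidean distance between log2 values centred on the mean of each probe set. Nearest to Camk2b (1448676_at) were Cnnm1, at a distance of 0.195, and Itpka, which encodes a calmodulin-activated inositol trisphosphate kinase, at 0.209. For Camk2d (1427763_a_at) they were Ndfip1 (0.0809) and Errfi1 (0.110), and for Camk2g (1423941_at) Nrsn1 (0.0861) and Nacc2 (0.0984). Habp4 (0.120) and Prkar1a, a regulatory subunit of protein kinase A (0.138), were nearest to Camk4 (1426167_a_at). Syt1, the calcium sensor of synaptic vesicle release (0.180), and Ptprr (0.216) were nearest to Camkk2 (1424474_a_at). With 5 arrays in 2 tissues the distance reflects mainly the size of the tissue difference.

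Other genes of calmodulin signalling were read with 1 probe set per gene, where 16% of all 14702 genes were lower in the tumours and 10.7% higher, with a median log2 fold change of -0.05. Some list genes passed the filter only through the cerebellum level, as Camk1d (mean 11.5 in tumours, 60.3 in cerebellum) and Rasgrf1 (8.69 and 213) did. Such genes could be kept only by differing, so the list counts are descriptions. Of 15 tested genes for calmodulin-like proteins, other calmodulin-regulated kinases and their inhibitors, 5 fell and 1 rose (list median -0.18). Camk2n1 (-1.91 ± 0.26, adjusted p = 6.23e-04) and Camk2n2 (-0.98 ± 0.28, adjusted p = 0.0341), which encode inhibitor proteins of CaMKII, were both lower. Camk1d, a target of CaMKK, fell by 1.48 ± 0.15 on the log2 scale (adjusted p = 2.09e-05), and Dapk1, a death-associated kinase, rose by 0.89 ± 0.21 (adjusted p = 0.00635). Camk2n2 lost its call without cerebellum 1 (-1.28, adjusted p = 0.0642), cerebellum 2 (-0.68, 0.341), medulloblastoma 1 (-1.05, 0.0521) or medulloblastoma 2 (-0.82, 0.159), and with no filter on low values (adjusted p = 0.0514). Dapk1 lost its call without cerebellum 2 (0.88, adjusted p = 0.0631).

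Calcineurin is the phosphatase that calmodulin activates, and in its list 6 of 13 genes fell (median -0.24). Of those 6, Ppp3cb was lower by 1 of its 5 tested probe sets and Nfat5 by 1 of 4. The catalytic subunit Ppp3ca had 175 units in tumours and 1145 in cerebellum (-2.62 ± 0.22, adjusted p = 5.83e-06), and the inhibitor Rcan2 had 19.4 and 273 (-3.03 ± 0.18, adjusted p = 8.93e-07). The regulatory subunit Ppp3r1 had -1.39 ± 0.21 (adjusted p = 3.90e-04), while its other tested probe set gave 0.15 and was not called, and Rcan3 had -0.75 ± 0.20 (adjusted p = 0.0123). The count was 3 without cerebellum 1 and 3 without cerebellum 2, where Rcan3 had -0.80 (adjusted p = 0.0553) and -0.70 (adjusted p = 0.101); without medulloblastoma 1 Rcan3 had -0.59 (adjusted p = 0.0521). Among the 13 tested enzymes and pumps that calmodulin regulates, 8 fell (median -0.75). They were led by Adcy1, the calcium-stimulated adenylyl cyclase (-3.90 ± 0.33, adjusted p = 2.82e-05), the plasma membrane calcium pumps Atp2b3 (-3.68 ± 0.28, adjusted p = 1.58e-05) and Atp2b2 (-3.08 ± 0.31, adjusted p = 2.12e-05), and Rasgrf1, an exchange factor for Ras (-3.16 ± 0.21, adjusted p = 1.86e-06). The second tested probe set of Atp2b3 gave -0.21 and was not called. Pde1c, a calmodulin-stimulated phosphodiesterase named here after its values were seen, counted as not called (0.14 ± 0.25, adjusted p = 0.736), but 3 of its 6 tested probe sets were called higher, with log2 fold changes up to 1.415 and none below 0.14.

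The calmodulin-binding IQ and scaffold proteins went both ways, with 6 of 11 lower and 2 higher (median -0.68). Pcp4, a small calmodulin-binding protein of Purkinje cells, had the largest difference (-4.67 ± 0.27, adjusted p = 8.96e-07), and Camta2 had -2.19 ± 0.27 (adjusted p = 8.84e-05). The 2 that rose were Aspm, a spindle pole protein of dividing progenitors (2.65 ± 0.22, adjusted p = 5.76e-06), and Iqgap1, a scaffold of the actin cortex (1.39 ± 0.19, adjusted p = 1.78e-04). Aspm was higher by all 5 of its tested probe sets and Iqgap1 by 3 of 5, whose log2 fold changes ran from -0.36 to 1.39. Of the lower genes, Strn was lower by 1 of its 3 tested probe sets, Strn3 by 2 of 3 and Camta1 by 2 of 4. Myo5a counted as not called, but 2 of its 3 tested probe sets were called lower, and the 3 log2 fold changes ran from -0.98 to -0.03. The number of lower genes was 4 after quantile normalization or with equal array medians, and 3 without cerebellum 1 or cerebellum 2.

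Among 12 tested transcription factors and cofactors on which these kinases act, 5 fell and 1 rose (median -0.32). The 1 that rose was Creb1 (0.58 ± 0.17, adjusted p = 0.0235), named here after its values were seen. It was called higher by 1 of its 4 tested probe sets, whose log2 fold changes ran from 0.02 to 0.90. Rora (-3.33 ± 0.21, adjusted p = 1.09e-06) is the nuclear receptor of Purkinje cells, and Mef2a (-1.59 ± 0.22, adjusted p = 2.26e-04), Mef2c (-1.25 ± 0.19, adjusted p = 4.09e-04) and Mef2d (-0.80 ± 0.27, adjusted p = 0.0436) are activity-dependent factors of neurons. Mef2d was not called after quantile normalization (-0.62, adjusted p = 0.135), with equal array medians (-0.75, adjusted p = 0.0563), with a pseudocount of 1 (adjusted p = 0.0506) or with no filter (adjusted p = 0.0633). Leaving out cerebellum 1 (adjusted p = 0.117), cerebellum 2 (0.238), medulloblastoma 1 (0.155) or medulloblastoma 3 (0.138) also ended its call, and its 2 other tested probe sets were not called. Of the 6 AMP-activated kinase subunits, which lie downstream of CaMKK2, 2 fell and 1 rose (median 0.03). Prkaa2 had -1.08 ± 0.18 (adjusted p = 0.00221), Prkag2 -0.81 ± 0.14 (adjusted p = 0.00112) and Prkab1 0.67 ± 0.20 (adjusted p = 0.0276). The call of Prkab1 ended without cerebellum 1 (0.52, adjusted p = 0.251), cerebellum 2 (0.81, 0.0722), medulloblastoma 1 (0.58, 0.0952) or medulloblastoma 3 (0.61, 0.0780).

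**Figure D4:**
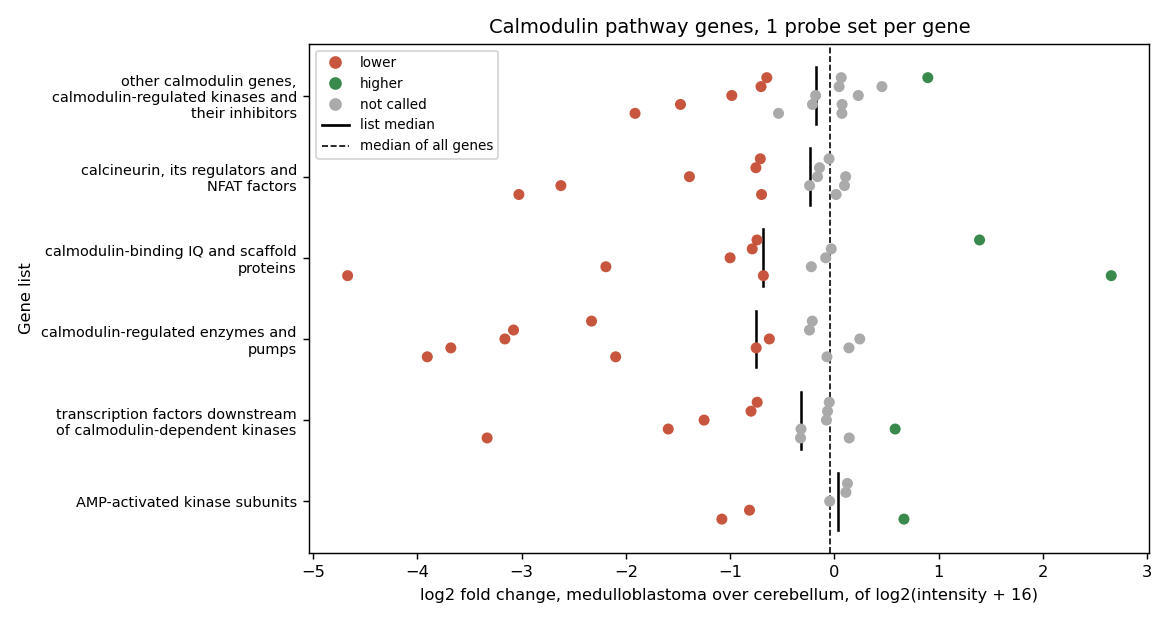
Log2 fold change of medulloblastoma over cerebellum, on log2(intensity + 16), for each tested gene of 6 lists around calmodulin, 1 point per gene with points spread vertically for legibility; red marks genes called lower, green genes called higher and grey those not called, the solid bars are list medians and the dashed line is the median of all genes. Pcp4 lies farthest to the left at -4.67 and Aspm farthest to the right at 2.65, and 5 of the 6 list medians lie below the median of all genes, that of the AMP-activated kinase subunits being 0.03.

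Cell type markers moved with these differences, and their part in the kinase values was not tested. Markers of mature granule neurons were lower in 8 of 8 tested genes, with a summed 430A intensity of 6059 to 6445 in cerebellum and 309 to 362 in tumours. Purkinje cell markers were lower in 6 of 6 (11204 to 14205 against 174 to 367), interneuron markers in 4 of 5 (1128 to 1576 against 109.7 to 145), oligodendrocyte markers in 4 of 4 (3691 to 4590 against 109.2 to 256) and astrocyte and Bergmann glia markers in 5 of 6 (2441 to 3326 against 383 to 762). The exception among the last was Gfap, at 62.1 in tumours and 36.0 in cerebellum (0.56 ± 0.22, adjusted p = 0.0789, not called). Of its 3 tested probe sets, 1 was called higher and 0 lower. The count of lower interneuron markers was 3 with a pseudocount of 1, quantile normalization, equal array medians or 430B scaled on the shared probe sets. Gad2, the interneuron marker not called, had 2 tested probe sets, and the other was called lower (-1.91). Granule neuron precursor markers were higher in 7 of 7 (198 to 371 against 2808 to 3713), dividing cell markers in 7 of 7 (67.4 to 262 against 3059 to 3472) and microglia markers in 3 of 5 (283 to 356 against 650.3 to 725). Endothelial markers were lower in 1 of 4 and otherwise not called (146 to 155 against 148 to 191). No marker was at or under 1 on all arrays of its chip. Among the granule neuron markers, Gabrd (mean 9.52 in tumours, 161 in cerebellum) and Grin2c (9.34 and 98.2) passed the filter on low values only through their cerebellum level. So did Slc1a6 (10.4 and 236) among Purkinje cell markers, Lgi2 (7.06 and 114) among interneuron markers and Mobp (11.5 and 511) among oligodendrocyte markers. Gli2 (121 and 10.5) and Aurkb (62.15 and 9.48) passed it only through their tumour level. The markers named for this are examples and not a full list. Such markers could be kept only by differing, so the marker counts are descriptions. The shares of all genes called lower or higher are given above, with the calmodulin lists.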

How the data were processed

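Per the labels' protocols, Trizol-extracted RNA was turned into biotinylated cRNA for the Affymetrix 430A and 430B chips. The deposited values are intensity on a linear scale, 1 per probe set and array; for their software and scaling, the record is "not given in the sources used here". The small number of arrays limits the precision. Between 298 and 477 values per array are exactly 1. All sample columns were mapped by accession.

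Each chip was analysed alone with limma 3.58.1 (R 4.3.3; lmFit, then eBayes with a trend, two-sided) on log2(intensity + 16), without further normalization, after dropping the dimmest 25% of probe sets; Benjamini-Hochberg adjustment covered every tested probe set of the chip. Genes are named by the platform annotation, which lists 20380 (430A) and 14661 (430B) probe sets with 1 gene, 691 and 245 with several, and leaves 1555 and 7605 unlisted. For gene lists, 1 single-gene probe set stood for a gene: tested ones first, then 430A, then those without an _s_at or _x_at ending, then the brightest. The text names all kinase probe sets, up to 4 called genes per list by absolute log2 fold change, and the 2 nearest genes of each called kinase. Other list genes are named for their values or where their probe sets differed. The members, lists and alternatives were chosen with earlier results of these data known.

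The alternatives tried were equal array medians, quantile normalization, pseudocounts of 1 and 64, 430B scaled on the shared probe sets, no filter or a 50% filter, no trend, the replicate number as a block, each array left out, and an adjusted p below 0.01. Figures used matplotlib 3.10.9 in Python 3.11.15.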

Additional observations from a re-analysis of the deposited data

How the results depend on the processing

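The kinase counts moved little: under every alternative run, 7 to 9 probe sets were lower on 430A and 4 to 7 on 430B, and none was higher. With the 430B arrays scaled to an equal mean log2 value on the probe sets shared with 430A, 6 were lower on 430B. The share of all 430B probe sets called lower rose from 9.77% to 11.6%, and that called higher fell from 7.85% to 5.42%. Their median log2 fold change moved from -0.02 to -0.15. With the replicate number as a block, 9 were lower on 430A and 7 on 430B, and Camk2a 1441734_at gained a call (-0.46, adjusted p = 0.0202); medulloblastoma 3 has no partner number, so that fit does not use it. Deviations of tumour and cerebellum arrays of the same number correlated at -0.03 and 0.17 on 430A and at 0.11 and 0.02 on 430B. The deviations of 2 cerebellum arrays are equal and opposite, so these values cannot show whether the numbers pair the tissues. The only kinase value to change sign was Camk2a 1437125_at, from -0.42 to 3.02e-04 with 1 array left out, the latter without cerebellum 2. Kinase log2 fold changes were larger in size with a pseudocount of 1 and smaller with 64, as with Camkk2 1424475_at (-2.74 and -0.83), and all stayed on the same side of the test.

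The list counts were recomputed under the same alternatives, a choice made after seeing the data. With the lowest 50% left out, other calmodulin-regulated kinases had 3 lower, the transcription factors 0 higher and the AMP-activated kinase subunits 1 lower. With the replicate block, the other kinases and the AMP-activated kinase subunits had 2 higher each. At an adjusted p below 0.01, calcineurin genes, IQ proteins and transcription factors had 3 lower each, and the transcription factors and AMP-activated kinase subunits 0 higher. With 1 array left out, the lower counts ranged from 3 to 5 (other kinases), 3 to 6 (calcineurin), 3 to 5 (IQ proteins) and 3 to 6 (transcription factors), and the higher counts from 0 to 2 (other kinases) and 0 to 1 (enzymes and pumps, transcription factors, AMP-activated kinase subunits). None of the 23 list genes named by absolute log2 fold change changed sign. With 1 cerebellum array left, the lone sample is assumed to vary like the tumours.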
